A study of Xenopus laevis with 3 samples.

Results

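The cilia and kinocilium genes described here are 95 genes, read by 148 probe sets (Xl-PSIDs), on arrays of inner ear tissue from post metamorphic Xenopus laevis. They were chosen by name: a probe set with a single gene symbol was kept where that symbol, without its L or S homeolog letter, began with a family name such as ift, bbs, dnah, dnai, rsph, tekt, cfap, cep, cetn, ttc, ttll, tctn or rfx. The rule uses names alone, although it was chosen with earlier results of these data known. The 148 probe sets were found among 15495 with 1 symbol, which stand for 9240 genes, and among 32539 in all besides controls. Family names are wider than function. The role list used here gave 16 of the 95 genes, mostly of the ttc family, no ciliary, basal body or centriolar role. That list was incomplete, since it left out at least cep43, a centriolar gene.

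A cilium is a membrane covered bundle of doublet microtubules, the axoneme, that grows from a basal body and is entered through a gate called the transition zone. Proteins are carried along it by intraflagellar transport (IFT). The IFT-B complex is needed for outward travel with kinesin and the IFT-A complex for the return with dynein, while the BBSome carries membrane cargo. On each sensory hair cell of the amphibian inner ear a single kinocilium stands beside the stereocilia and marks the direction in which the bundle responds. Supporting cells carry primary cilia, and multiciliated cells line other organs of the frog.

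RNA was pooled from 5, 5 and 6 animals for replicates 1, 2 and 3, with mean weights of 9, 9.6 and 9.6 g and an age of about 3 months. Animals came from a commercial supplier, no genotype or treatment was named in the labels, and the 3 GeneChip arrays form a single group of separate pools, so no comparison between stages was made. Values are log2 GCRMA intensities in arbitrary units (a.u.), given per array in the order of replicates 1, 2 and 3, or as mean ± SD (n = 3). GCRMA leaves probe sets without signal at a floor near 2, and intensities of different probe sets are not a measure of which transcript was more abundant. A gene is printed with its probe set of highest mean unless another is named. In whole tissue, fewer cells of a type and less RNA per cell cannot be told apart.

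The arrays resembled each other closely, with Pearson correlations of 0.994 to 0.995 across all probe sets. Across the 109 detected cilia probe sets, which are not independent replicates, they were 0.973 to 0.981. Only the former take in probe sets at the floor, so the correlations of these sets cannot be compared. Listed markers were read beside the tissue label. Of 11 inner ear genes measured, 9 were detected, while 80.2% of all genes with a symbol were detected by the rule given below. Among the 9 were otoa at 12.98 ± 0.11 and sox2 at 11.83 ± 0.17, while pax8 and lfng stayed at the floor. All 3 measured hair cell genes were detected, myo6 at 12.72 ± 0.22, ush1c at 11.61 ± 0.18 and calb1 at 7.97 ± 1.24. The other 15 names on that list matched no symbol. Names were matched exactly, so the entry ocm did not take in symbols such as ocm.2. The paper annotates oncomodulin probe sets under that name. It reports a probe set that was lower in juveniles than in the younger larval stage alone, and another that was lower than in both larval stages. Erythrocyte genes (4 of 4), skeletal muscle genes (8 of 8) and neuronal genes (11 of 12) were detected too. Shares near or above that of all genes cannot check the tissue label.

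A probe set was called detected where its 3 values averaged at least 4. The limit is the one that the study's methods required before a probe set was named upregulated, and its use for detection was a choice made here. By this rule 109 of 148 cilia probe sets (73.6%) were detected, and 106 were at 4 or more on every array. The background was 64.4% of all probe sets and 72.8% of those with 1 symbol, so the share of cilia probe sets lay close to that of named probe sets. A one-sided moderated test in limma of a mean above 4, adjusted by Benjamini-Hochberg over all probe sets, called 106 of 148 (71.6%), against 62.2% of all and 70.8% of those with 1 symbol. Counted by gene, 84 of 95 (88.4%) had a detected probe set, against 80.2% of all genes with a symbol. Several probe sets stood for 37 of the 95 genes, and for 3936 of the 9240 genes. The detected cilia probe sets had a median of 9.28 and those detected with 1 symbol a median of 10.06.

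Few probe sets lay near the limit. Of 39 that were not detected, 34 had a mean under 3. Just outside were bbs5 at 3.84 ± 0.13, a second cep44 probe set at 3.75 ± 0.14 and ttll7 at 3.60 ± 0.05. Just inside were a second cep68 probe set (4.21, 4.50 and 3.72) and a second ttll1 probe set (5.03 in replicate 1, 4.33 in replicate 2 and just under 4 in replicate 3). These, with cfap300, were the detected probe sets that the limma test did not call (adjusted p = 0.423 for cep68, 0.165 for ttll1 and 0.145 for cfap300).

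The axonemal class also took in the dynein arm assembly factors and every cfap gene, so it was wider than the parts of the axoneme. By class, 30 of 32 axonemal genes (93.8%) and 17 of 19 transport genes (89.5%) were detected. So were 22 of 28 genes of the transition zone, basal body and remaining roles (78.6%) and 15 of the 16 genes without an assigned role (93.8%). Over all genes with a symbol 80.2% were detected, close to the share of the transition zone and basal body class. The gene counts by role given below have the same background.

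Intraflagellar transport was represented by 12 genes, and 11 were detected. On the IFT-B side, ift52 had 9.45, 9.50 and 9.18 a.u. The L copy of ift20, whose product also sits at the Golgi in mammals, had 10.01, 10.09 and 10.06 a.u. Both were far above the floor on every array and spread by less than 0.5 between pools. The other detected IFT-B genes were ift80 (11.16 ± 0.07), ift46 (10.60 ± 0.21), ift57 (10.12 ± 0.10), ttc30a (9.70 ± 0.24), ift74 (9.28 ± 0.19), ift27 (8.04 ± 0.33) and ift22 (5.78 ± 0.35). In contrast, ift172, the largest IFT-B subunit, read 2.05, 2.05 and 2.05 a.u. on its single probe set. The IFT-A complex was represented by ift43 (9.95, 9.91 and 9.82) and by ttc21a (6.97, 6.84 and 6.68), and both were detected in all pools.

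Of the BBSome, the coat that moves receptors out of cilia, bbs7 had 10.11, 9.95 and 9.89 a.u. and bbs9 had 9.40, 9.43 and 9.29 a.u. The subunit bbs5 had 3.98, 3.80 and 3.74 a.u. and stayed under 4 on each array. Genes for the chaperonin-like proteins that assemble the BBSome were detected, bbs10 at 8.32 ± 0.19 and bbs12 at 6.92 ± 0.18. The small GTPase gene arl3, which acts in unloading lipidated cargo inside cilia, had 10.94, 11.57 and 10.99 a.u. and was highest in replicate 2. The gene arl6, whose product recruits the BBSome to membranes, had 10.45, 10.46 and 10.21 a.u.

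**Figure D1:**
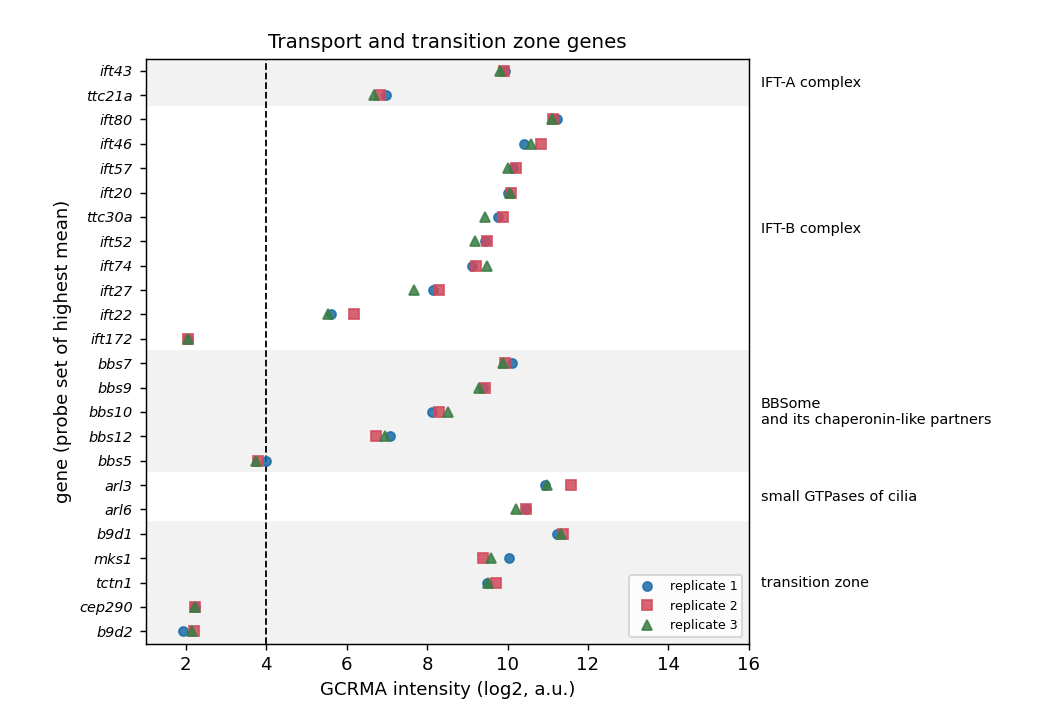
Intensity (log2, a.u.; x axis) of each transport and transition zone gene (y axis, grouped by role) on its probe set of highest mean, with 1 symbol per replicate array and a dashed line at the detection minimum of 4. Most genes lie between 6 and 12 with the symbols close together, while ift172, cep290 and b9d2 lie near 2 and bbs5 lies just under 4.

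Of the axonemal dyneins, the motors that bend motile cilia, only genes of the smaller chains were detected. The outer arm intermediate chain gene dnai1 had 9.21, 8.90 and 8.62 a.u., and dnai2 had 8.70, 8.27 and 8.28 a.u. Both were highest in replicate 1, by at most 0.59 over the lowest pool. The light chain genes dnal1 (11.11, 11.46 and 10.76) and dnal4 (10.88, 10.78 and 11.02) and the intermediate chain gene dnai4 (7.21, 7.22 and 6.91) were likewise detected on each array. The only heavy chain gene with a symbol, dnah9, whose human counterpart sits in the distal outer arm, read 1.97, 1.98 and 1.98 a.u. on its higher probe set and 1.85 on its other one. No other dynein heavy chain gene was among the members, so the detected dynein chain genes were those of intermediate and light chains.

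Genes for factors that assemble dynein arms in the cytoplasm were detected in 4 of 4 cases. The highest means were those of dnaaf10 (9.88, 9.77 and 9.93) and of the L copy of dnaaf5 (9.88, 8.89 and 9.96). The first varied by 0.15 between pools, whereas the second varied by 1.06 and was lower in replicate 2 than in both other pools. The genes dnaaf3 (6.95 ± 0.21) and dnaaf4 (6.73 ± 0.30) completed the group.

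Radial spokes and the central pair apparatus, which coordinate the beat, were represented by 7 genes, of which 6 were detected. The spoke head genes rsph1 and rsph9 had 7.05, 6.65 and 6.43 a.u. and 8.76, 9.08 and 9.17 a.u. The order of the pools was opposite in these 2 genes, with rsph1 highest and rsph9 lowest in replicate 1. The spoke stalk gene rsph3 had 8.42 ± 0.16 a.u. and cfap70 had 8.47 ± 0.31 a.u. The central apparatus gene spag6 had 11.05, 11.39 and 11.30 a.u. The gene spef1, which encodes a microtubule bundling protein of the central pair, had 6.84, 5.36 and 5.88 a.u. and differed between pools by 1.48. By contrast, spef2, also of the central apparatus, read 2.35, 1.97 and 1.97 a.u.

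Transcripts of tektins, filament proteins that lie inside the doublet microtubules, were detected on 6 of 6 probe sets for 4 genes. The S copy of tekt2 had 11.52, 11.61 and 11.53 a.u. and the S copy of tekt3 had 10.40, 10.20 and 10.41 a.u. The genes tekt1 (8.64, 8.38 and 8.51) and tekt4 (9.64, 9.36 and 9.18) were also above 8 on each array.

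Genes with the prefix cfap, named for cilia and flagella associated proteins, were detected in 11 of 11 cases beside cfap70, although only 13 of their 14 probe sets passed the limma test. Among those for proteins of the doublet lumen, the S copy of cfap45 had 10.28, 9.78 and 9.16 a.u. and the L copy of cfap52 had 9.20, 9.00 and 9.30 a.u. The spread of cfap45 was 1.11 and that of cfap52 was 0.30. The gene cfap161, of the same lumen, had 9.67 ± 0.10 a.u. The gene cfap20, whose product joins the tubules of a doublet, had 9.17, 9.36 and 9.44 a.u. The gene cfap298, required for dynein arm assembly in zebrafish and human, had 10.57, 10.60 and 10.21 a.u. The gene cfap126, whose product Flattop positions basal bodies and kinocilia in the mouse, had 9.12, 8.59 and 8.88 a.u. Near the limit, cfap410 had 4.66, 5.59 and 5.80 a.u. and cfap300, another assembly factor, had 4.96, 3.85 and 5.06 a.u.

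**Figure D2:**
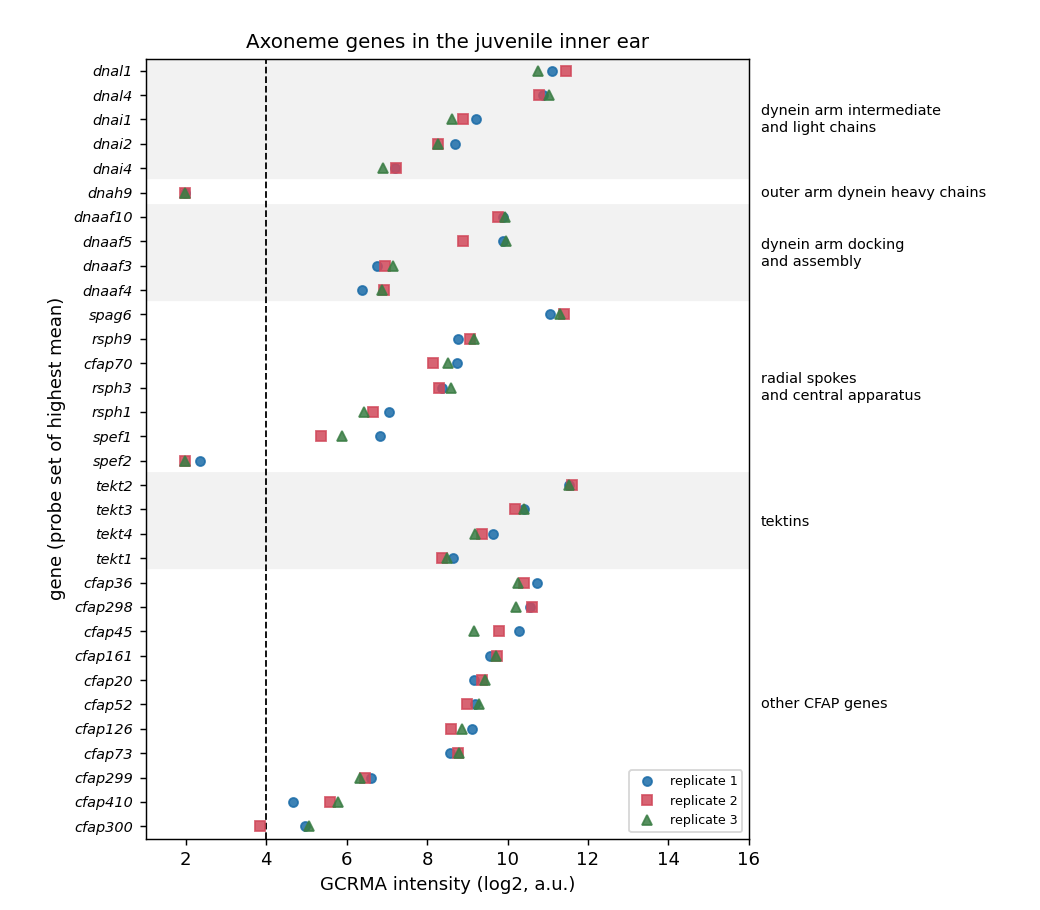
Intensity (log2, a.u., x axis) of each gene of the axonemal class (y axis, grouped by role) on its probe set of highest mean. There is 1 symbol per replicate array and a dashed line at the detection minimum of 4. All genes lie right of the line apart from dnah9 and spef2, near 2, and cfap300, whose replicate 2 value of 3.85 lies left of it.

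At the transition zone, b9d1 had 11.24, 11.38 and 11.33 a.u., whereas its partner b9d2 read 1.93, 2.20 and 2.15 a.u. The genes mks1 (10.03, 9.38 and 9.58) and tctn1 (9.50, 9.72 and 9.52), which act in the same module, were detected. The gene cep290, which encodes a large protein linking microtubules to the ciliary membrane, stayed at 2.22, 2.23 and 2.23 a.u. Thus 3 of 5 transition zone genes were detected, each with the limma test passed.

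Basal body and centriole genes made up the largest group, with 18 of 19 detected. The S copy of cep41, required for glutamylation of ciliary tubulin in zebrafish, had 13.47, 13.39 and 13.33 a.u. The L copy of cetn3, a centrin, had 12.56, 12.77 and 12.42 a.u. These copies and their homeologs held 4 of the 5 highest means of the whole set, with cep41.L at 13.35 and cetn3.S at 11.56. The centrin genes cetn1 (10.06, 10.77 and 10.49) and cetn4 (9.20, 9.51 and 9.42) were detected as well. The gene cep97, whose product caps centrioles and restrains cilium growth, had 9.80, 9.81 and 9.89 a.u. Further genes of this group were detected too, such as cep192 (10.24 ± 0.28), the L copy of cep83 (8.41 ± 0.13), cep135 (7.81 ± 0.33) and cep120 (6.63 ± 0.32). The exception was cep152, for a scaffold of centriole duplication, at 3.22, 2.92 and 3.21 a.u. The gene cby1, which acts in basal body docking, had 7.55, 5.91 and 7.66 a.u., with replicate 2 below both other pools. The gene cep70 (7.28 ± 0.66) was highest in replicate 1 and lowest in replicate 3, and cep57l1 (4.94, 5.97 and 4.97) was highest in replicate 2.

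The remaining roles had few genes. The tubulin glutamylase gene ttll1 had 10.29, 9.93 and 10.07 a.u., and ttll7 had 3.62, 3.54 and 3.63 a.u. The polycystin gene pkd1, which encodes a large receptor-like protein of the kidney cilium, read 1.88, 1.88 and 1.89 a.u. The transcription factor gene rfx2, a regulator of ciliary genes in frog multiciliated cells, had 3.15, 3.03 and 3.05 a.u. and was not detected, while rfx5, a regulator of antigen presentation genes, had 6.18 ± 0.06 a.u.

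**Figure D3:**
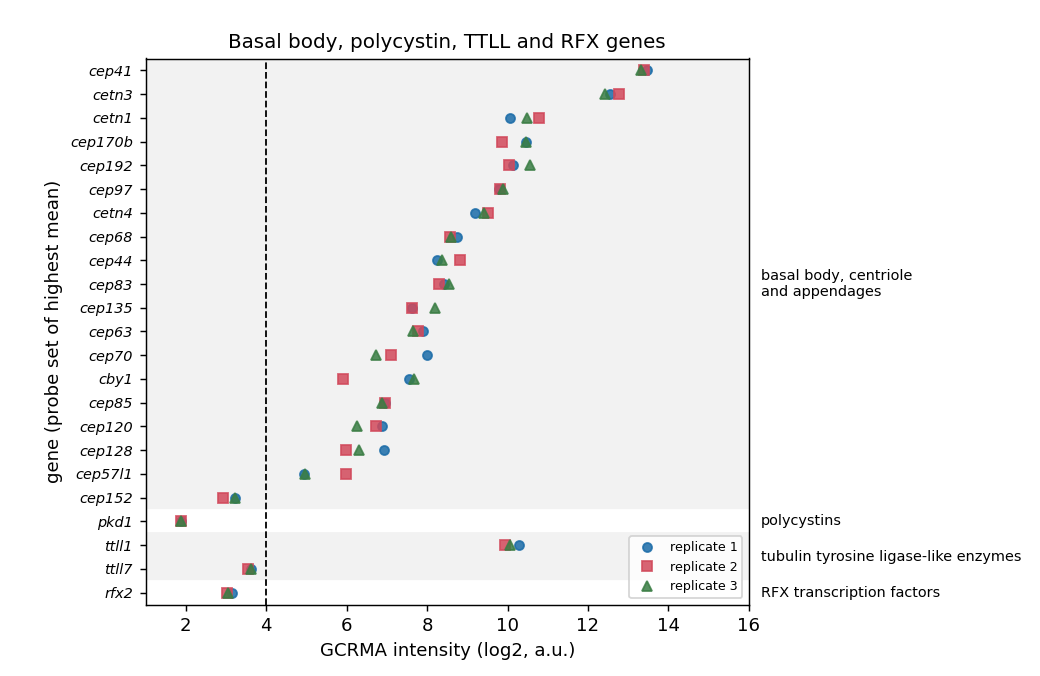
Intensity (log2, a.u.; x axis) of each basal body, polycystin, tubulin tyrosine ligase-like and RFX gene (y axis, grouped by role) on its probe set of highest mean, with 1 symbol per replicate array and a dashed line at the detection minimum of 4. Values reach from cep41 above 13 to cep152, pkd1, ttll7 and rfx2 left of the line, and cby1 has its replicate 2 symbol set apart from the other two.

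Among the genes with no assigned role, ttc14 (11.57 ± 0.28), ttc4, a chaperone partner (11.48 ± 0.13), and cep43, whose product sits at centrioles in human cells although the role list left it out (10.79 ± 0.20), were among the highest means. The exception to detection was ttc29, at 2.09 ± 0.02, although TTC29 is found in the flagellum of mammalian sperm. Restricting the set to the 79 genes with a role in that list gave 69 detected (87.3%).

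The 11 genes not detected were thus ift172, bbs5, dnah9, spef2, b9d2, cep290, cep152, pkd1, ttll7, rfx2 and ttc29. They came from 10 roles, and in 7 of those roles at least 1 other gene was detected, the exceptions being the heavy chains, the polycystins and the RFX factors of ciliary genes, where rfx5 is not counted.

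The symbols left out many ciliary genes with other names, so 120 further names were listed by role. Of these, 60 had a probe set with 1 symbol, 47 were detected (78.3%, against 80.2% of all genes with a symbol) and 45 passed the limma test. Some names are different symbols of the same gene, such as wdr34 and dync2i2. The names without a probe set are therefore not a count of unmeasured genes. The transport motor genes kif3a (8.34, 8.01 and 8.11), kif3b (7.83 ± 0.49) and kifap3 (10.27 ± 0.18) were detected, as was cluap1, an IFT-B subunit (11.29, 11.32 and 11.17). Axonemal genes under other names were detected in 15 of 16 cases. Examples are enkur, whose product binds calcium channels (11.63 ± 0.02), and gas8, of the nexin link between doublets (6.62, 6.03 and 6.53). The assembly factor gene zmynd10 was the exception at 3.60 ± 0.32, and tppp3 (4.34 ± 0.32) was detected without passing the limma test. The axonemal names take in the dynein light chain genes dynll1, dynlt1 and dynlrb1, whose signal was not tied to axonemes here. The trafficking GTPase gene rab8a (12.18, 12.32 and 12.33) and pcm1, of centriolar satellites (10.79, 10.55 and 10.47), were also well above 4. For ciliary hedgehog signalling 4 of 6 genes were detected. The receptor gene smo had 11.44, 11.54 and 11.66 a.u., the transcription factor genes gli2 and gli3 had 5.43 ± 0.52 and 8.62 ± 0.54 a.u. and their inhibitor sufu had 6.43 ± 0.22 a.u., while the target genes ptch1 (1.90 on each array) and gli1 (1.94 on each array) stayed at the floor. Among the kinocilium genes listed apart, only dcdc2 had a probe set, at 2.15 ± 0.07. The genes pcdh15 and cdh23, which hold stereocilia and kinocilium together, had none with a symbol, as was the case for fuz and wdr35. The links themselves were therefore not read.

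Regulators that set up motile cilia or multiciliated cells were detected in 2 of 5 cases. The master regulator gene foxj1 had 2.76, 2.24 and 2.29 a.u., and its relative foxj1.2 had 7.79, 8.05 and 8.01 a.u. The multiciliated cell genes mcidas (1.92, 1.92 and 1.93) and ccno (2.81 ± 0.32) were not detected, while ccdc78, of the structure that amplifies centrioles, had 7.48, 6.36 and 6.81 a.u. On the longer list of multiciliated cell markers, which includes rfx2 and the basal cell gene tp63, 2 of 9 measured genes were detected, foxj1.2 and ccdc78. The log2 values summed over the 9 genes were 32.2, 30.1 and 31.1. Most of these genes lay under 4 and ccdc78 differed most between pools, so the sums do not give a level of multiciliated cells. Of 13 markers of dividing cells, which duplicate their centrioles, 8 were detected. Their means were 11.84 for pcna, 9.97 for mki67, 8.76 for mcm2, 7.71 for bub1 and 6.88 for cdk1. Those of aurka, ccna2 and top2a were 6.60, 4.38 and 4.24, and top2a did not pass the limma test. The mitotic cyclin genes ccnb1 (1.93 on each array) and ccnb2 (2.48 ± 0.18) were not detected, nor were aurkb, plk1 and bub1b. The log2 values summed over the 13 genes were 75.7, 72.7 and 77.5. The part of these cells in the cilia values was not tested.

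Xenopus laevis is an allotetraploid with L and S copies of many genes. For 11 cilia genes both copies had a probe set: ift20, dnaaf5, cfap45, cfap52, tekt2, tekt3, cep41, cep83, cep85, cetn1 and cetn3. Both were detected in 11 of 11, against 1518 of 2009 genes (75.6%) with both copies on the array. The copies were assigned by the symbols of their probe sets, and whether a probe set reads one copy alone was not tested, so their levels were not ranked. The pools did not always move alike in both copies. For cfap45, the S copy differed between pools by 1.11 and the L copy (7.92, 7.64 and 7.80) by 0.29. For dnaaf5, the L copy was lowest in replicate 2, where the S copy (5.25, 5.80 and 5.60) was highest. For cfap52, in contrast, both copies were lowest in replicate 2, with 7.65, 7.26 and 7.72 a.u. for the S copy.

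Probe sets of the same gene often disagreed. Of 37 cilia genes with several, 17 (45.9%) had some detected and some not, against 1274 of 3936 genes (32.4%). The gaps were large. For ift46 one probe set had 10.41, 10.82 and 10.58 a.u. and the other 3 read at most 2.29. For spag6, 4 probe sets lay between 9.41 and 11.25 and the other 2 at 2.07 and 2.57. For dnal4, values of 10.90 and 7.67 stood beside one of 2.30, and for cetn1 its detected L probe set at 10.44 stood beside others at 2.34 and 2.70. Likewise mks1 and tctn1 were each at the floor on a second probe set (2.05 and 1.98), as were dnaaf5, ttc7b, ttc9 and ttc39b on 1 or more. A second probe set was also low for ift27 (2.04), ift22 (2.36), dnaaf4 (2.06) and cby1 (2.31). A gene called not detected on a single probe set, such as ift172 or cep290, therefore lacked the check that these genes had.

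The disagreements were also counted by the letter, A or S, that stands before the last number of the probe set ID. The meaning of this letter was not given in the sources used here. For 21 cilia genes with probe sets of both letters, 10 were detected by both, 8 by an A probe set alone, 0 by an S probe set alone and 3 (dnah9, pkd1 and ttc29) by neither. The 8 were ift46, bbs12, rsph3, mks1, tctn1, cep44, ttc7b and ttc9. For rsph3 the A probe set had 8.36, 8.29 and 8.59 a.u. and the S probe set 2.35, 2.32 and 2.39 a.u. For cep44 they had 8.25, 8.83 and 8.38 a.u. and 3.82, 3.85 and 3.59 a.u. Over all 1323 genes with both letters, 13.9% were detected by an A probe set alone and 11.7% by an S probe set alone. Detection by single probe sets, in contrast, was 80.8% for A (21 of 26) and 72.1% for S among cilia probe sets, against 70.6% and 73.1% among all probe sets with 1 symbol.

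Part of these pairs carry the same cluster number in their IDs. Of 12 such clusters with a cilia gene and both letters, 7 were detected by the A probe set alone and 0 by the S probe set alone, against 32.9% and 5.58% of 2580 clusters over the whole array, where genes without a symbol are included. A gene read by S probe sets alone, as were ift172, bbs5, b9d2, cep290, cep152, spef2, rfx2 and ttll7, had no A probe set to set beside it.

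**Figure D4:**
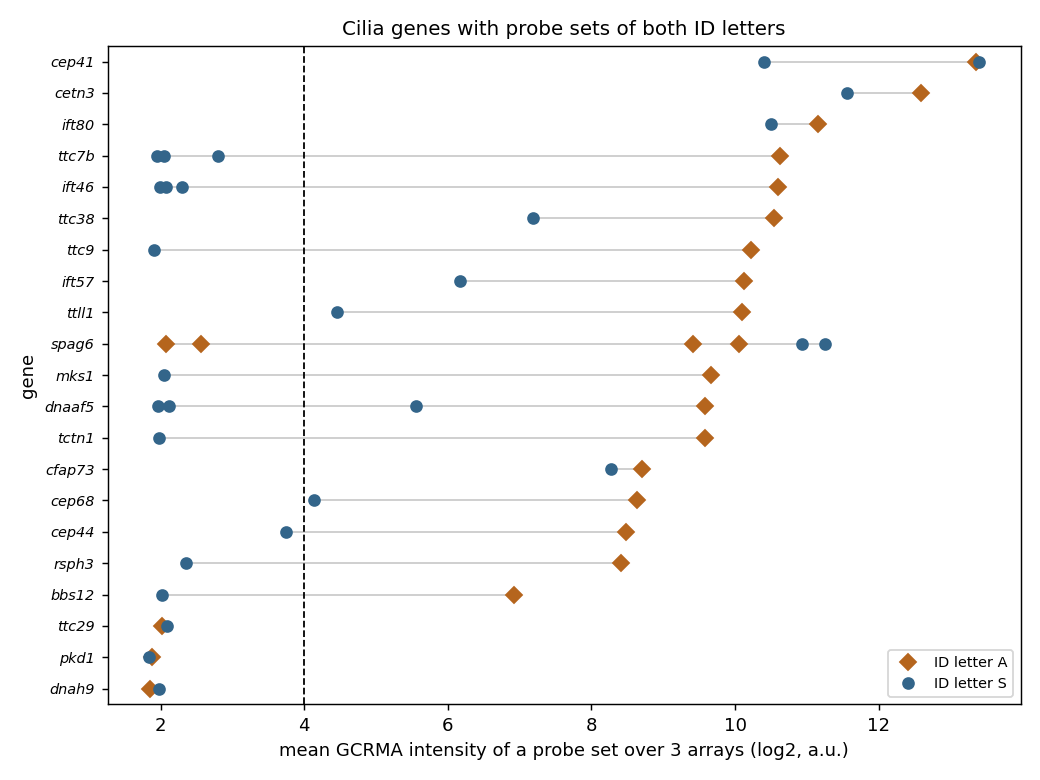
Mean intensity over 3 arrays (log2, a.u.; x axis) of each probe set of the 21 cilia genes that have both ID letters (y axis), with diamonds for A and circles for S and a dashed line at the detection minimum of 4. In 8 genes the diamond lies right of the line and all circles left of it, and no gene shows the reverse.

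Differences between pools were small for most cilia genes. Among the 109 detected probe sets the median range over the 3 arrays was 0.38, against 0.37 over all 20942 detected probe sets, and 70 had a range under 0.5. A range of 1.5 or more was reached by 2 of 148, against 2.36% of all probe sets and 2.89% of the detected ones. They were a second ttc38 probe set (7.38, 8.16 and 6.02, range 2.14) and cby1 (range 1.75). The first was lowest in replicate 3 and the second lowest in replicate 2, and the other ttc38 probe set (10.56, 10.67 and 10.40) differed by 0.27. A range of 1 or more was seen in 11 of 109, against 1767 of 20942 detected probe sets (8.44%). Beside these they were spef1 (1.48), cep70 (1.28), cfap300 (1.21), a second ift57 probe set (1.16), cfap410 (1.13), cfap45.S (1.11), dnaaf5.L (1.06), cep57l1 (1.04) and a second ttll1 probe set (1.03). No pool was the extreme one in all of them. Replicate 1 was the highest for spef1, cep70, cfap45.S and ttll1, while replicate 2 was the lowest for spef1, cfap300, dnaaf5.L and cby1.

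The shift of a probe set on an array is its value there less the average of the remaining arrays. Over the 109 detected cilia probe sets the median shift was 0.08, 0.04 and -0.08 on replicates 1, 2 and 3, against 0.01, -0.01 and 0.00 over all detected probe sets. Axonemal probe sets (40) had medians of 0.10, -0.04 and 0.02. Transport probe sets (20) had medians of 0.11, 0.10 and -0.19, and 14 of the 20 were lowest in replicate 3, against 7045 of 20942 detected probe sets. Members given no role in the list (18) had much the same medians, of 0.11, 0.12 and -0.18, with 10 lowest in replicate 3. Of these 10, 6 were ttc probe sets and 3 were cep probe sets, including those of cep43, a centriolar gene. They are therefore not a set free of ciliary genes. The shift was not confined to the probe sets listed under transport. The 61 probe sets of ciliary genes under other names had medians of 0.03, 0.00 and 0.06. These shifts compare single pools and have no replicate check.

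Some marker lists of other cells had wider shifts. The 18 detected neuronal probe sets had median shifts of 1.09, 0.06 and -1.03, the 4 hair cell probe sets 0.93, -0.36 and -0.67, and the 15 muscle probe sets -0.50, -0.89 and 1.38. The 6 erythrocyte probe sets, in contrast, had 0.00, 0.03 and 0.00, the 11 of dividing cells 0.09, -0.20 and 0.18, the 17 inner ear probe sets 0.27, 0.02 and -0.16 and the 2 multiciliated cell probe sets 0.32, -0.31 and -0.01. The log2 values summed over the list were 122.6, 115.5 and 108.7 for 12 neuronal genes, 34.1, 31.6 and 31.2 for 3 hair cell genes and 73.7, 69.8 and 81.1 for 8 muscle genes. The gene calb1 (9.35, 7.58 and 6.96) held 2 of the 4 hair cell probe sets and most of the difference in their sum, since myo6 (12.94, 12.50 and 12.73) and ush1c (11.82, 11.53 and 11.49) varied less. Of the 15 muscle probe sets, 6 were of ckm. In replicate 3, 13 of the 15 were highest and 2 lowest, with myh4 (9.22, 6.70 and 6.62) among the latter. Of the 18 neuronal probe sets, 16 were lowest in replicate 3, while gap43 (11.95, 12.39 and 12.08) was lowest in replicate 1. The 5′ to 3′ difference of the gapdh control probe sets was -1.13, -1.04 and -1.36, and that of ef1a was likewise widest in replicate 3, at -3.87. Replicate 3, where the transport genes were lowest, thus had the lowest neuronal sum, the highest muscle sum and the widest 5′ to 3′ difference. Their part in the shifts was not tested.

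**Figure D5:**
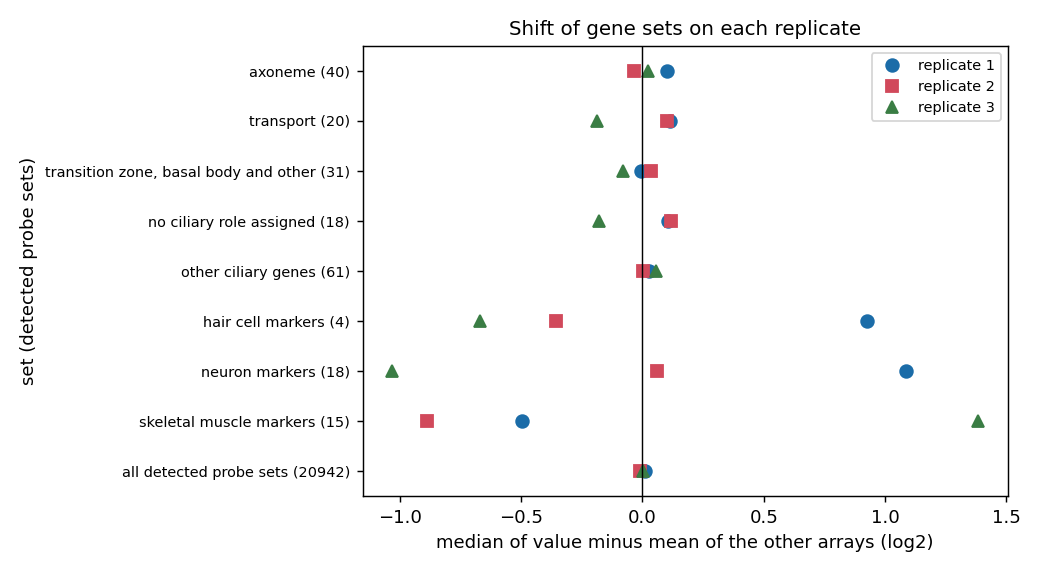
Median shift (value less the average of the remaining arrays, log2; x axis) of each set of detected probe sets (y axis, number of probe sets in parentheses), with 1 symbol per replicate array and a line at 0. The cilia classes lie within 0.2 of the line, while hair cell, neuronal and muscle markers reach from -1.03 to 1.38.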

How the data were processed

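Juvenile inner ear RNA of 3 pools was amplified and hybridised by the authors to Affymetrix arrays for this species, and the scans were preprocessed with GCRMA in JMP Genomics, as the study's methods state. The deposited values are log2 intensities, 1 per probe set and array. The sources used here do not say whether larval arrays were normalized with them. GCRMA compresses differences near its floor, and precision is limited by the number of arrays. All deposited columns were used, and 96 control probe sets were left out of the counts.

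Gene symbols came from the platform annotation: 279 probe sets had several symbols, none a cilia name, and 16765 had no row. Updating symbols by Entrez ID through RefSeq (Xenopus_laevis_v10.1), where 147 of 148 cilia probe sets matched, changed 0 names. L and S copies were joined into 1 gene. Detection was a mean of 4 or more, and was tested in limma 3.58.1 (R 4.3.3, with an intercept only, Benjamini-Hochberg at 0.05 over 32539 probe sets), which was tried on simulated data. Counts were made in Python 3.11.15.

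The members, lists and rules were chosen with earlier results of these data known. Genes named were a textbook selection, the 10 probe sets of highest mean and of largest range, means within 0.5 of 4, and up to 10 genes whose probe sets differ on detection. Others given as examples, the move of cfap20 to the other cfap genes and the removal of a name entered by error under kinocilial links were chosen after the values were seen, as were the homeolog and ID letter counts. Promoter sequences were not used here, so a planned motif count was not made. Alternatives were other minimums, quantile normalization, other probe set types, members with a ciliary role only and leaving out each replicate.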

Additional observations from a re-analysis of the deposited data

How the results depend on the processing

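Of 47 alternatives to the counts and median shifts, 44 differed from the value reported by less than the tolerance set (1.5 times for counts, 1 SD between replicates for shifts). That tolerance was wide. The SD used for shifts (0.20) exceeded each median shift, so even a change of sign could pass. With 1 replicate left out, the shifts of the remaining arrays mirror each other and are not separate alternatives. The number 44 therefore cannot show that the shifts were stable. Detected cilia probe sets numbered 99 to 114 under minimums of 3, 5 and 6, and detected genes 67 to 88, the lowest where no probe set of the gene was allowed under 4. The limma count was 102 to 106, apart from a higher count with a threshold of 3. With a range minimum of 1 instead of 1.5, 11 probe sets passed in place of 2. Leaving out each replicate in turn gave 0 to 2 at 1.5, with 0 without replicate 2 and 1 without replicate 3. These counts of differing probe sets therefore rest on replicate 2 and replicate 3.

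The second cep68 probe set fell under the minimum without replicate 2, at 3.96. The median shift on replicate 2 was -0.01 without replicate 3, so its sign was not stable. That on replicate 3 was 0.00 over all members, which include undetected probe sets, most of them near the floor. Over detected probe sets it was -0.06 with quantile normalization, -0.09 without replicate 1 and -0.11 without replicate 2. Without a replicate the limma test rests on 2 arrays. No paired analysis was possible because all arrays form 1 group. The promoter motif count was not run. Absence of detection refers only to probe sets with 1 symbol, and values near 2 are at the floor of GCRMA and carry no order.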
